A study of Mus musculus with 8 samples.

Results

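In proB cell colonies, 10 genes widely used as markers of macrophages were followed: Csf1r, Adgre1, Cd14, Mrc1, C1qa, C1qb, C1qc, Cd68, Ctss and Apoe. They were 10 of the 27835 genes on the arrays, taken by their Ensembl mouse gene IDs from a list. That list was chosen with earlier results of these data known. All 10 had a value on every array. The groups were 4 arrays of transgenic colonies that overexpress HMGN1 (called HMGN1 arrays here) and 4 arrays of wild-type colonies, all grown from mouse bone marrow in a methylcellulose medium for B cells and harvested at 1 week. Each array hybridised total RNA of whole colonies. The labels give no strain, sex or age of the mice, no promoter or species of origin for the transgene, and no cell sorting, and no source animal for any array, so a p-value here compares samples whose spread could be partly technical. Wild-type replicate 3 stood apart from the other arrays over all genes, so results are also given without it.

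Macrophages are phagocytes that arise from myeloid progenitors under the growth factor CSF1, and in bone marrow they clear dying cells and the nuclei that erythroblasts expel. The genes fall into 4 roles: surface receptors (Csf1r, Adgre1, Cd14, Mrc1), the C1q chains of the classical complement pathway, proteins of the lysosome (Cd68, Ctss), and a lipid carrier (Apoe). None is exclusive to macrophages: Cd14 is also made by monocytes, Ctss by other antigen-presenting cells including B cells, and Apoe by many cell types. In RNA of whole colonies, fewer cells of a type and less RNA per cell cannot be told apart. The deposited table names genes by ID alone, so neither B cell markers, nor markers of other myeloid cells, nor the overexpressed gene itself was checked here.

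The upstream sequences of the genes are shown first. Most of these genes read high and low on the same arrays, and whether the sequences bear on that was not tested. The table of RefSeq start sites used here (build GRCm38.p6) held 6 of the 10 genes: Mrc1, C1qb, C1qc, Cd68, Ctss and Apoe, the last with 3 starts. The other members were missing from that table, which does not mean that they lack a RefSeq start. The 250 bases before the start are given for C1qb and C1qc, which are neighbouring genes. They are also given for Mrc1, whose receptor is coded elsewhere and whose signal varied about as widely, and for Cd68, whose signal varied least. Capitals mark GAGGAA, or TTCCTC on the other strand, the core letters bound by PU.1, a transcription factor needed for macrophage development.
C1qb, chr4:136886201-136886450, minus strand: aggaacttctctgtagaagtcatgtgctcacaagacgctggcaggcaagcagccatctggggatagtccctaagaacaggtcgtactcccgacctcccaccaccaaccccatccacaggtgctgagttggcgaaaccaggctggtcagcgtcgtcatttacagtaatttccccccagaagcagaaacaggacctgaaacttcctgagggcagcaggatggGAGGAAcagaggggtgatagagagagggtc
C1qc, chr4:136892915-136893164, minus strand: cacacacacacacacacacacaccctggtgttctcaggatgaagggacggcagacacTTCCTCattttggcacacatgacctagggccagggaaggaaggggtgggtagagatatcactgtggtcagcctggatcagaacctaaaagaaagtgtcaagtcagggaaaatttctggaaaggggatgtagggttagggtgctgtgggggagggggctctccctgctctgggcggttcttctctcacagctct
Mrc1, chr2:14229164-14229413, plus strand: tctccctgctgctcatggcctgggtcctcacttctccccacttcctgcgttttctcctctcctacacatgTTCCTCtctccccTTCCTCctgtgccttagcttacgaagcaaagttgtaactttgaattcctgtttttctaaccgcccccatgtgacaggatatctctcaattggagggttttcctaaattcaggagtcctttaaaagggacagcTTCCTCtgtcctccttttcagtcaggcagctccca
Cd68, chr11:69666171-69666420, minus strand: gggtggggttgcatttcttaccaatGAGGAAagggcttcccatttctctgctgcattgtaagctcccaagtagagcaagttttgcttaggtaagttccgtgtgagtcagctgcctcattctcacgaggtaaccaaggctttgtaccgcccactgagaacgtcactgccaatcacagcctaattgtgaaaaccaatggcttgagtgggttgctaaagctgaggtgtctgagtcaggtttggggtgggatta
These letters occurred upstream of 7 of the 8 starts, the exception being 1 of the 3 starts of Apoe, while 23.3% of the 32851 mouse start sites in the table held them in the same window. The search covered both strands, and no match of the motifs named next overlapped one of these. TGTGGT (RUNX) occurred at 1 start, that of C1qc, against 14% of all starts. TGANTCA (AP-1) occurred at 1 start, that of Cd68, against 6.75% of all. TATAAA (the TATA box) occurred at 2 starts, those of Ctss and of 1 Apoe start, against 12.4% of all. A match to letters is a description and no measure of binding.

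The main comparison asks whether overexpression of HMGN1 went with a different level of macrophage transcripts. No difference passed the test. By limma with Benjamini-Hochberg adjustment over all genes, 0 of the 10 passed an adjusted p of 0.05 and 0 had an unadjusted p under 0.05, where 0.0144% of all genes passed the first and 10.4% the second. Adjusted p-values of the 10 ran between 0.656 and 0.95. The ranges of the genotypes overlapped for all 10, while 6.81% of all genes had ranges that did not overlap. All 10 log2 fold changes (HMGN1 over wild-type) lay below 0, between -0.23 and -0.04 with a median of -0.10, beside a median of -0.0018 over all genes, of which 50.6% lay below 0. The 10 signs are not separate observations, since each gene correlated with the mean of the others over the 8 arrays (Pearson r between 0.70 and 0.97). Without wild-type replicate 3 the median of the 10 was -0.02 and 5 of the 10 lay below 0. Leaving out any other single array left 8 to 10 of the 10 below 0, with medians between -0.16 and -0.07. The first component of the residuals (34.5% of their variance) was also added as a covariate. Limma then called 0.866% of all genes and again 0 of the 10. An unadjusted p under 0.05 was reached by 1 of the 10, Mrc1 (limma adjusted p = 0.155), and by 4360 of the 27835 genes. The component was computed from the residuals of these same arrays, so p-values with it may be too low.

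**Figure D1:**
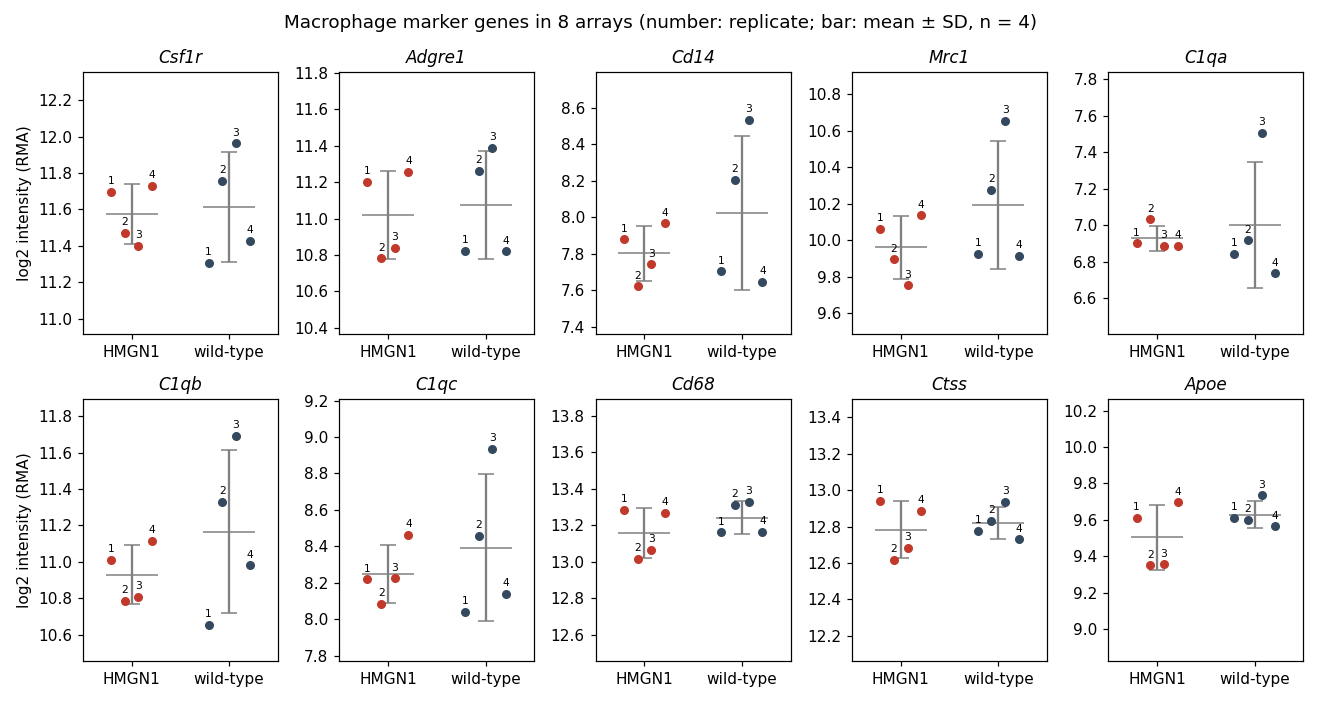
Log2 RMA intensity (y axis, each panel spanning the same height) of the 10 macrophage marker genes in 4 HMGN1 (left) and 4 wild-type (right) arrays; numbers are replicates and bars the mean ± SD. The genotypes overlap in every panel, and wild-type replicate 3 is the highest wild-type array in each.

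Csf1r (ENSMUSG00000024621_at) encodes the receptor for CSF1 and interleukin 34 on which macrophages depend for survival. Its intensity was 3317, 2842, 2701 and 3400.2 in HMGN1 replicates 1 to 4, against 2537, 3462, 3990.2 and 2752 in wild-type replicates 1 to 4. The HMGN1 values all lay within the span of the wild-type values, at 3065 ± 345 in HMGN1 arrays and 3185 ± 667 in wild-type arrays (SD, n = 4 each). The difference was smaller than either spread (log2 fold change -0.04, 95% interval -0.36 to 0.28, limma adjusted p = 0.95). Without wild-type replicate 3 its log2 fold change was 0.08.

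Adgre1 (ENSMUSG00000004730_at) encodes an adhesion receptor, the surface antigen by which mouse macrophages are most often stained. Its intensity was 2353, 1760.1, 1831 and 2448 in HMGN1 replicates 1 to 4, against 1812, 2456, 2683 and 1809 in wild-type replicates 1 to 4. In each genotype a pair of arrays read high and a pair low: HMGN1 replicates 1 and 4 with wild-type replicates 2 and 3 lay above all of the others. Means were 2098 ± 353 in HMGN1 arrays and 2189.95 ± 448 in wild-type arrays (SD, n = 4 each), and the genotypes could not be separated (log2 fold change -0.05, 95% interval -0.41 to 0.30, limma adjusted p = 0.934). Without wild-type replicate 3 the estimate was 0.05.

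Cd14 (ENSMUSG00000051439_at) encodes the co-receptor that hands bacterial lipopolysaccharide to TLR4. Its intensity was 235, 197, 214 and 250.1 in HMGN1 replicates 1 to 4, against 209, 295, 371 and 200.1 in wild-type replicates 1 to 4. Wild-type replicates 2 and 3 stood above every HMGN1 array, while wild-type replicate 4 lay below 3 of the 4 HMGN1 arrays. The log2 fold change was -0.22 (95% interval -0.63 to 0.19, limma adjusted p = 0.712), and -0.05 without wild-type replicate 3.

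Mrc1 (ENSMUSG00000026712_at) encodes the mannose receptor CD206, an endocytic lectin of tissue macrophages. Its intensity was 1068, 952, 862 and 1125 in HMGN1 replicates 1 to 4, against 972, 1241, 1614 and 965 in wild-type replicates 1 to 4. The same wild-type pair was highest, and the other wild-type arrays fell among the HMGN1 arrays. Mrc1 had the lowest unadjusted p of the 10 by limma, 0.183 (log2 fold change -0.23, adjusted p = 0.656). Without wild-type replicate 3 its log2 fold change was -0.08.

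C1q starts the classical complement pathway by binding antibody on a surface, and it also marks dying cells for uptake. Its A, B and C chains are encoded by 3 genes that lie side by side on mouse chromosome 4, in the order C1qb, C1qc, C1qa. A separate RefSeq table of genes held 0 genes between them. C1qb (ENSMUSG00000036905_at) had intensities of 2067, 1766, 1792 and 2219 in HMGN1 replicates 1 to 4, against 1613, 2577, 3308 and 2023 in wild-type replicates 1 to 4. Its lowest and its highest array were both wild-type, 2.05-fold apart, while the HMGN1 arrays spanned 1.26-fold. C1qb had the widest span over arrays of the 10 genes, and its genotype means did not separate (log2 fold change -0.23, 95% interval -0.67 to 0.20, limma adjusted p = 0.707). Leaving out wild-type replicate 3 gave -0.06.

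C1qc (ENSMUSG00000036896_at) had intensities of 298, 271, 299 and 353 in HMGN1 replicates 1 to 4, against 263, 351, 489.8 and 282 in wild-type replicates 1 to 4. Wild-type replicate 3 again lay above all other arrays and wild-type replicate 1 below them. The log2 fold change was -0.15 (limma adjusted p = 0.81) with all arrays and 0.04 without wild-type replicate 3. Within each array, C1qb minus C1qc on the log2 scale stayed between 2.58 and 2.88, a span of 0.29, while C1qb alone spanned 1.04 and C1qc alone 0.90. That difference averaged 2.68 ± 0.09 in HMGN1 arrays and 2.77 ± 0.12 in wild-type arrays (SD, n = 4 each). The size of the offset between probe sets carries no meaning, and only its span over the arrays is read here. Close tracking was not particular to this pair. The Pearson correlation over the 8 arrays with the mean of the other members was 0.95 for C1qb and 0.94 for C1qc. It was 0.97 for Cd14 and for Mrc1, 0.95 for Csf1r, and between 0.70 and 0.92 for the rest.

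C1qa (ENSMUSG00000036887_at) had intensities of 119, 131, 118 and 118 in HMGN1 replicates 1 to 4, against 115, 121, 182 and 107 in wild-type replicates 1 to 4. Array medians over all genes were 95.8 to 100.1, and a background level cannot be read from these values, so changes of C1qa may be understated. Wild-type replicate 3 stood alone, and the other 7 arrays lay between 107 and 131. C1qa followed its neighbours less closely than they followed each other: C1qb minus C1qa spanned 0.66 over the arrays and C1qc minus C1qa 0.52. The log2 fold change was -0.07 (limma adjusted p = 0.898), and 0.10 without wild-type replicate 3.

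**Figure D2:**
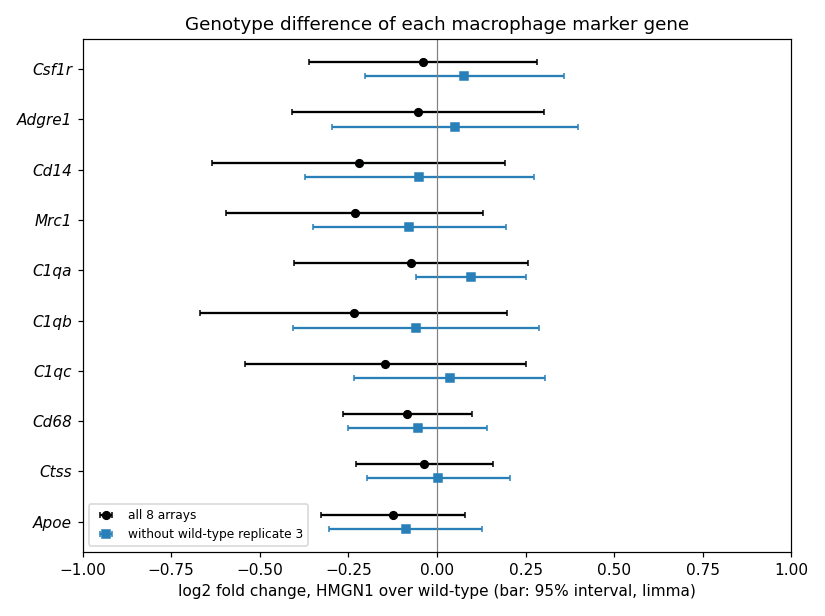
Log2 fold change of HMGN1 over wild-type (x axis) with its 95% interval from limma for each of the 10 genes (y axis), with all 8 arrays (black) and without wild-type replicate 3 (blue). Every interval includes 0, and 5 of the 10 estimates lie above 0 once that array is left out.

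Cd68 (ENSMUSG00000018774_at) encodes a heavily glycosylated protein of late endosomes and lysosomes. Its intensity was 9973, 8280.2, 8577 and 9869 in HMGN1 replicates 1 to 4, against 9169, 10169, 10302 and 9182 in wild-type replicates 1 to 4. Arrays differed by at most 1.24-fold. Means were 9175 ± 871 in HMGN1 arrays and 9706 ± 615 in wild-type arrays (SD, n = 4 each), and the log2 fold change was -0.08 (95% interval -0.27 to 0.10, limma adjusted p = 0.752), or -0.05 without wild-type replicate 3.

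Ctss (ENSMUSG00000038642_at) encodes cathepsin S, the protease that trims the invariant chain from MHC class II. Its intensity was 7865, 6289, 6580.1 and 7581 in HMGN1 replicates 1 to 4, against 7015, 7294, 7841 and 6797 in wild-type replicates 1 to 4. HMGN1 replicate 1 was the highest of all arrays and HMGN1 replicate 2 the lowest, so the wild-type values lay inside the HMGN1 span. The log2 fold change of -0.04 was the nearest to 0 of the 10 genes (95% interval -0.23 to 0.16, limma adjusted p = 0.916), and it was 0.0032 without wild-type replicate 3.

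Apoe (ENSMUSG00000002985_at) encodes apolipoprotein E, with which macrophages export cholesterol. Its intensity was 782, 653, 655 and 829.8 in HMGN1 replicates 1 to 4, against 783, 776, 852 and 757 in wild-type replicates 1 to 4. HMGN1 replicates 2 and 3 lay below every wild-type array, and HMGN1 replicates 1 and 4 lay among the wild-type arrays. Genotype took 21.8% of its variance over the arrays, the largest share among the 10, whose median was 10.4% beside 12.2% over all genes. The difference did not pass (log2 fold change -0.12, 95% interval -0.33 to 0.08, limma adjusted p = 0.668), and was -0.09 without wild-type replicate 3.

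The precision differed between the genes. The 95% interval of the genotype difference lay inside 2-fold in both directions for all 10 genes and inside 1.5-fold for 7, as it did for 98.7% and 93.8% of all genes. Cd14, Mrc1 and C1qb were the 3 whose interval reached beyond 1.5-fold. The lower bounds reached furthest for C1qb, at 0.63 of the wild-type level, and for Cd14, at 0.645.

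Most of these genes varied more between arrays of the same genotype than a typical gene did. The genotype difference was smaller than the range among HMGN1 arrays and than the range among wild-type arrays for 10 of 10 genes, as it was for 83.5% of all genes. The SD between arrays of a genotype had a median of 0.26 (log2) over the 10 genes, beside 0.12 over all genes. Csf1r, Adgre1, Cd14, Mrc1, C1qa, C1qb and C1qc, 7 of the 10, lay above the 90th percentile of all genes by this SD, at percentiles 90.9 to 97. Cd68, Ctss and Apoe lay at percentiles 48.9, 55.6 and 61.2, near the middle of all genes. Without wild-type replicate 3 the median SD of the 10 was 0.19, beside 0.11 over all genes, and 3 of the 10, Adgre1, Cd14 and C1qb, lay above the 90th percentile. Csf1r, Mrc1 and C1qc then lay at percentiles 87.6, 86.3 and 85.6. The place of C1qa rested on that array: its SD was 0.25 with it and 0.08 without it, at percentile 28.5.

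**Figure D3:**
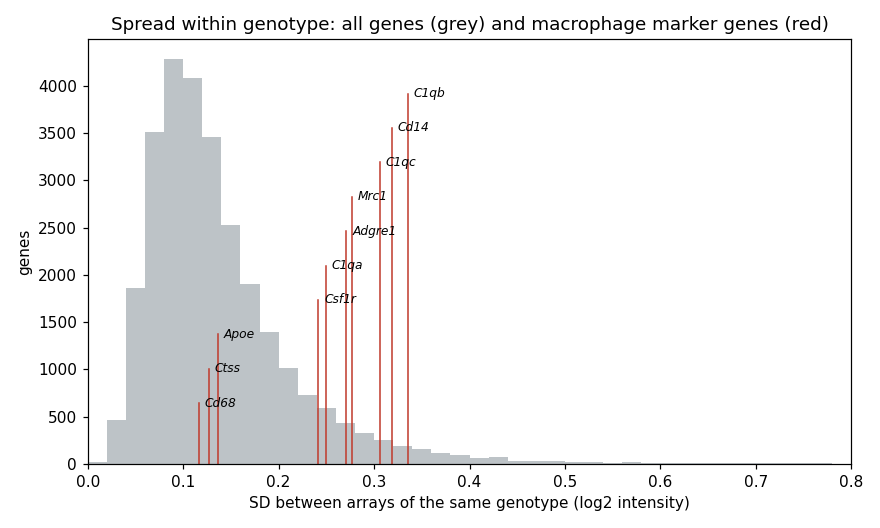
Number of genes (y axis) by the SD of log2 intensity between arrays of the same genotype (x axis), for all genes (grey; 56 genes lie beyond the right edge at 0.8) and for the macrophage marker genes (red lines, whose height carries no value). Cd68, Ctss and Apoe lie in the bulk of genes and the other 7 in its upper tail with all 8 arrays; without wild-type replicate 3, C1qa lies at percentile 28.5.

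The spread followed the same arrays from gene to gene. Relative to each gene's mean over the 8 arrays, the median of the 10 genes was 0.01, -0.20, -0.18 and 0.08 on the log2 scale in HMGN1 replicates 1 to 4, against -0.18, 0.15, 0.46 and -0.17 in wild-type replicates 1 to 4. The median over all genes stayed between -0.0106 and 0.0078 on every array. HMGN1 replicates 1 and 4 were the highest pair of their genotype for 8 of the 10 genes, the exceptions being C1qa and C1qc, and for 20.6% of all genes. Wild-type replicates 2 and 3 were the highest pair of theirs for 9 of the 10, the exception being Apoe, and for 17.6% of all genes. Each genotype held arrays with a median above and arrays with a median below the genes' means. The highest medians, 0.46 and 0.15, were both in wild-type arrays, and those above the means in HMGN1 arrays were 0.08 and 0.01.

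Wild-type replicate 3 was the highest of all 8 arrays for 9 of the 10 genes, Ctss being the exception, while it was the highest for 20.2% of all genes. It lay 0.64 above the gene's mean for C1qb, 0.62 for Cd14 and 0.62 for C1qc on the log2 scale. For Cd68, Ctss and Apoe the excess was 0.13, 0.14 and 0.17. The same array stood apart over all genes, at 36.2 on the first principal component (29.9% of variance), where the other wild-type arrays lay between -0.841 and 2.51 and the HMGN1 arrays between -17.5 and -0.553. On the first component of the residuals over all genes it scored 32.1, where the others lay between -13.9 and 8.05. With that component as a covariate, the median SD of the 10 genes within a genotype was 0.13, against 0.26 without the covariate. Over all genes it was 0.10 with the covariate and 0.12 without it. The component was computed from the residuals of these same arrays, so a lower SD with it is partly built in. Wild-type replicate 2, second highest in these genes by the median, did not stand apart on that component.

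**Figure D4:**
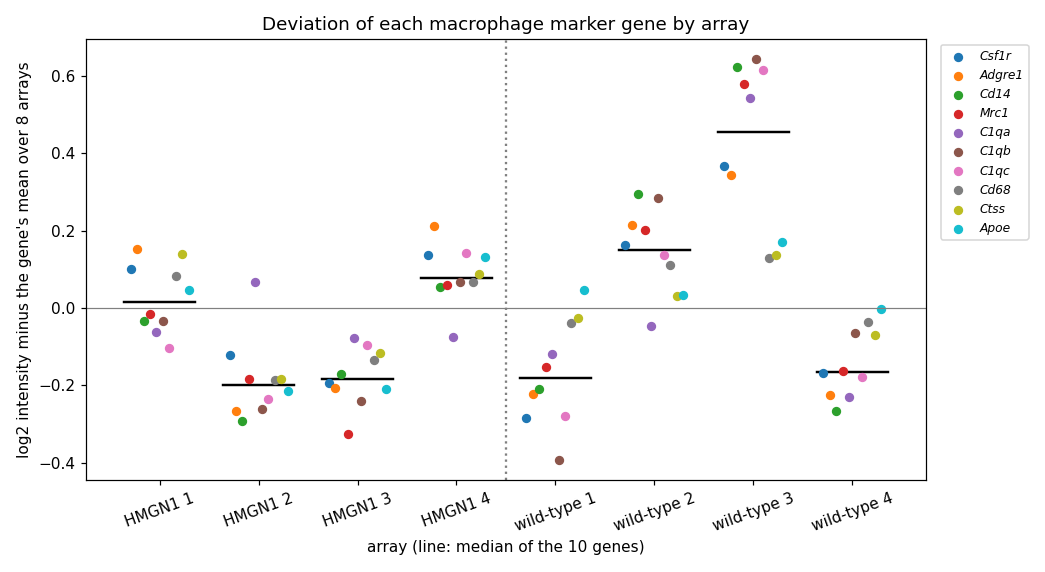
Log2 intensity minus each gene's mean over the 8 arrays (y axis) for the 10 genes (colours) on each array (x axis, HMGN1 left of the dotted line, wild-type right); black lines are medians of the 10 genes. The median is highest in wild-type replicate 3 and lowest in HMGN1 replicate 2.

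The spread of the 10 genes was unequal between the genotypes in a way that depended on the gene. The range among arrays was smaller in HMGN1 than in wild-type arrays for the 7 receptor and C1q genes, and larger in HMGN1 arrays for Cd68, Ctss and Apoe. Without wild-type replicate 3 it was smaller in HMGN1 arrays for 5 of the 7 and larger for Adgre1, at 0.48 in HMGN1 arrays and 0.44 in wild-type arrays, and for Mrc1, at 0.38 in HMGN1 arrays and 0.36 in wild-type arrays. The SD of log2 intensity was 0.18 in HMGN1 arrays and 0.07 in wild-type arrays for Apoe, while it was 0.16 in HMGN1 arrays and 0.45 in wild-type arrays for C1qb (n = 4 each). Over all genes the wild-type range was the larger for 61.2%, and for 39.3% without wild-type replicate 3. The median range of the 10 was 0.34 in HMGN1 arrays and 0.70 in wild-type arrays, or 0.39 in the wild-type arrays without replicate 3. A range over fewer arrays tends to be smaller, so the wild-type range without replicate 3 is not on equal terms with the HMGN1 range. No test of unequal spread was made.

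Other genes shared this pattern over the arrays. Among 3110 other genes with a mean log2 intensity of at least 6 and an SD over arrays of at least 0.2, the Pearson correlation with the mean of the 10 genes over the 8 arrays was at least 0.95 for 128 genes and -0.95 or lower for 1. The nearest in pattern was ENSMUSG00000045658 (r = 0.995, rho = 0.881), followed by ENSMUSG00000031803 (r = 0.992, rho = 0.976). They were picked for this likeness over 8 arrays, so the values describe the pick and carry no p. Over the 7 arrays without wild-type replicate 3, 31 of the 3110 genes reached 0.95, and r was 0.993 and 0.978 for these 2 genes. The intensity of ENSMUSG00000045658 was 876, 711, 694 and 932 in HMGN1 replicates 1 to 4, against 724, 985, 1232 and 709.6 in wild-type replicates 1 to 4. It was highest in wild-type replicates 2 and 3 and in HMGN1 replicates 4 and 1, as Csf1r and Adgre1 were.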

How the data were processed

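Total RNA of 8 samples was hybridised to Affymetrix arrays. The authors summarised the probes with RMA, per the submitters' processing notes, and deposited 1 intensity for each array and each of 27835 Ensembl gene IDs. The deposited values ran between 5.80 and 17578 and were read as linear, so log2 was taken before any test. RMA includes quantile normalization, which gives the arrays much the same distribution and hides a change in total RNA. The gene definition's version is not stated. There were 0 columns of other samples.

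Groups came from sample titles. HMGN1 minus wild-type was fitted over all 8 arrays with limma 3.58.1 (lmFit, eBayes; R 4.3.3), unfiltered and without a block, with Benjamini-Hochberg adjustment over all genes at a threshold of 0.05. The fit was tested on simulated data. Precision is limited by the number of arrays. The symbols of the 10 IDs came with the gene list, and the deposited table does not pair them. The RefSeq table used for names held 0 Ensembl IDs, so 15 further lists (180 symbols, among them other macrophage, monocyte, neutrophil, stromal and B cell genes, and Hmgn1) could not be matched and were not tested. The 10 genes and these lists were chosen with earlier results of these data known. All 10 are named. The genes nearest to them in pattern were ranked by Pearson correlation over the arrays, and 2 IDs are printed. Motifs were searched in the 250 bases before each RefSeq start. The fit was repeated with other scalings (medians, quantiles), with the replicate number as a block, above the median signal only, with other variance models and weights, with 16 added before log2, with a covariate (the first residual component), and without each array.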

Additional observations from a re-analysis of the deposited data

Results flagged for a closer look

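In HMGN1 arrays, C1qa stood at 7.03 (log2 intensity) in replicate 2, apart from the other 3 arrays, which lay between 6.89 and 6.90. It was the 1 case among 22 groups of 4 values examined, where chance gives about 1.1. HMGN1 replicate 2 was the lowest of all 8 arrays for 5 of the other macrophage marker genes, and for 9.68% of all genes.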

How the results depend on the processing

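None of the 10 macrophage marker genes passed by limma under any of the 16 alternatives, with adjusted p between 0.155 (Mrc1, residual component as covariate) and 0.997. Of the estimates, 2 changed sign under array weights, to 0.0029 for Csf1r and 0.0218 for C1qa (log2). Leaving out 1 array gave log2 fold changes of -0.141 to 0.0772 for Csf1r, -0.139 to 0.0507 for Adgre1, -0.162 to 0.0953 for C1qa, -0.263 to 0.0354 for C1qc and -0.0888 to 0.0187 for Ctss. It gave -0.40 to -0.06 for C1qb, -0.35 to -0.05 for Cd14, -0.33 to -0.08 for Mrc1, -0.13 to -0.04 for Cd68 and -0.19 to -0.07 for Apoe. For 7 of the 10 genes, Cd68, Ctss and Apoe being the others, the highest of these came without wild-type replicate 3. Without wild-type replicate 1, C1qb had an unadjusted limma p of 0.033 (adjusted p = 0.442), where 2896 of the 27835 genes had one under 0.05. Over all genes, limma called 3 higher and 1 lower. It called 105 higher and 136 lower with the residual component as a covariate. That component comes from the residuals of these same arrays, so part of this rise may be built in. Without 1 array it called 0 to 16 higher and 0 to 24 lower. It called 0 higher and 0 lower with the replicate block, where 2374 genes had an unadjusted p under 0.05. The cause was not tested. With the replicate block the 10 genes had adjusted p between 0.771 and 0.968. Deviations from the group means did not correlate positively between arrays that share a number (r = -0.078, -0.088, -0.237 and -0.095 across genes), which gives no sign of pairing. These values come with no measure of background, so how far dim genes such as C1qa were detected is unknown.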
